A study of Homo sapiens with 8 samples.

Results

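The genes described here are 10 receptor tyrosine kinases of hepatic stellate cells: PDGFRA, PDGFRB, DDR2, EGFR, FGFR1, MET, AXL, IGF1R, EPHA2 and EPHA4. They were chosen by name, with earlier results of these data known. The rows are those of the authors' deposited table of translation efficiency that carry these symbols, and each symbol had 1 row among 12109 transcripts. Human stellate cells, which turn into the main scar-forming cells of the liver on injury, had been cultured with serum and given either the control silencing reagent named dsi-control (genotype WT) or dsiLARP6 (genotype LARP6 kd). There were 8 libraries, 2 for each assay (RNA-seq or ribosome profiling) in each condition. The labels call the cells a cell line named HSCs without naming the line or its origin, and assign no TGF-beta treatment to these libraries. LARP6, a member of the La-related family, is known for binding a stem-loop in collagen messages, and the comparison addresses how its loss alters translation message by message.

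Receptor tyrosine kinases are single-pass membrane proteins whose outer part binds a ligand and whose inner part phosphorylates tyrosines once receptors pair. The phosphotyrosines recruit adaptor proteins that start the RAS-ERK and PI3K-AKT cascades, and the ubiquitin ligase CBL and phosphatases end the signal. In stellate cells the platelet-derived growth factor receptors are known for driving proliferation and migration, and the discoidin receptor DDR2 is known as a receptor for fibrillar collagen.

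Translation efficiency is the number of ribosome footprints relative to RNA, and it is given here on the log2 scale. It is a ratio within 1 transcript, so the level of a long and a short message can be set side by side as far as footprints and RNA were counted over the same bases, which the sources used here do not give. The authors' deposited table gives the knockdown log2 efficiency, the log2 change of knockdown over control by 2 methods and a final one, and p-values. It holds no value per library, so no replicate spread, standard error or depth stands beside any value below, and only the authors' p-value speaks to precision. The control efficiency was derived by subtracting the log2 change of the second method from the knockdown log2 efficiency. A transcript is called when its adjusted p in the authors' deposited table is under 0.05, and the words rose and fell are kept for called transcripts. LARP6 abundance was not analysed here, since the table gives ratios only, so the labels of the knockdown libraries are taken as given. The values are relative to the typical transcript: the median over all rows of the authors' deposited table was 0.015 for the log2 change and 0.0078 for the knockdown log2 efficiency.

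The rows matched 10 protein-coding transcripts of GENCODE release 29 on GRCh38. Because ribosomes choose the start codon from its surroundings, the 15 bases before and the 12 bases after the annotated start codon (in capitals) are shown for 9 of them, 5′ to 3′ on the transcript strand. The letters come from the GENCODE release 29 transcript sequences and are reference sequence, not reads of these libraries.
DDR2: acaccatcttctgagATGatcctgattccc
PDGFRB: agcagcaaggacaccATGcggcttccgggt
PDGFRA: aagtttcccagagctATGgggacttcccat
EGFR: cttcggggagcagcgATGcgaccctccggg
MET: gataaacctctcataATGaaggcccccgct
AXL: gaaagtttggcacccATGgcgtggcggtgc
IGF1R: tcccaaataaaaggaATGaagtctggctcc
EPHA2: agcgagaagcgcggcATGgagctccaggca
EPHA4: tggcaccggcgaaccATGgctgggattttc
Favourable contexts usually have a purine 3 bases before the ATG and a G directly after it. A purine at that place was found in 9 of the 10 messages, all but AXL, and in 85.5% of 10400 protein-coding transcripts of the table with a complete coding region. A G directly after the ATG was found in 4 of the 10 and in 53.8% of those transcripts. Both together (ANNATGG or GNNATGG, read on the transcript strand) occurred in PDGFRA, EPHA2 and EPHA4, 3 of the 10, and in 46.1% of those transcripts. DDR2 and PDGFRB, the 2 receptors that were called, have the purine and lack the G. EGFR, FGFR1, MET and IGF1R, which were not called, have the same combination.

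After LARP6 knockdown the translation efficiency of DDR2 and PDGFRB fell, and no receptor rose by the authors' adjusted p. By the authors' deposited table, 2 of the 10 receptors were called lower and 0 higher, where 1.12% of all transcripts were called lower and 1.07% higher (2.20% in either direction). The final p before adjustment was under 0.05 for 7 of the 10 in the authors' deposited table, 4 with a negative and 3 with a positive log2 change, where 10.3% of all transcripts had such a p. Of the 10 log2 changes in the authors' deposited table, 6 were negative and 4 positive, with a median of −0.31 and a range from −2.10 for EPHA4 to 0.81 for MET. The median absolute log2 change in the authors' deposited table was 0.47 for the receptors and 0.33 for all transcripts. The 2 called receptors were both lower, and the 4 positive log2 changes were all in receptors that were not called. The receptors and the gene lists below were chosen with earlier results of these data known. Their shares beside those of all transcripts are therefore descriptive and were not tested. How deeply each message was sequenced is unknown, and its part in these p-values was not tested.

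**Figure D1:**
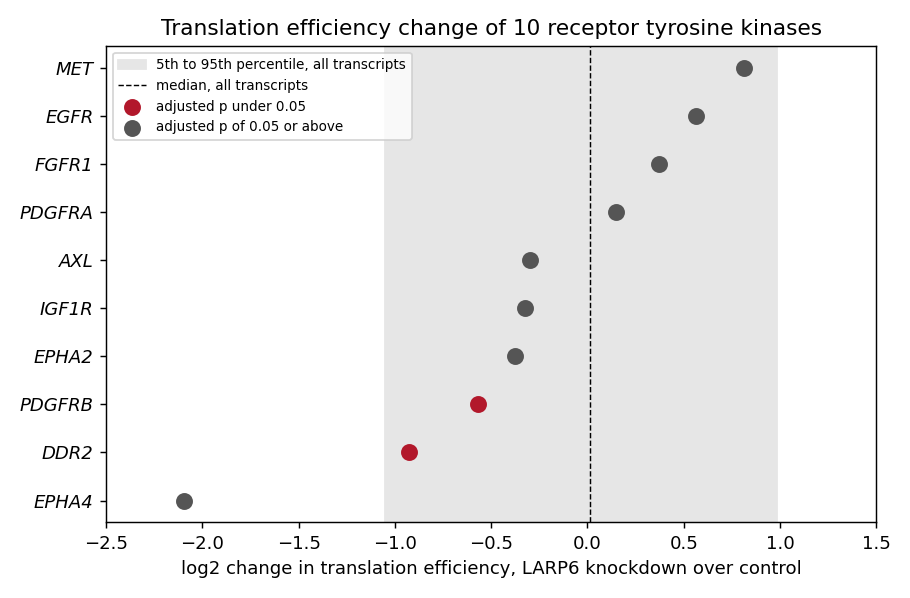
Final log2 change in translation efficiency (x axis) of each of the 10 receptors (y axis), LARP6 knockdown over control, as deposited by the authors; red points have an adjusted p under 0.05, and the grey band and dashed line are the 5th to 95th percentile and the median of all 12109 transcripts. DDR2 and PDGFRB are the red points, at −0.93 and −0.57, and EPHA4 at −2.10 is the 1 receptor outside the grey band.

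The collagen receptor DDR2 had the smallest p of the 10. Its transcript (chromosome 1, 162632470 to 162780421, GRCh38, plus strand, 18 exons) was 1.90-fold lower after knockdown in the authors' deposited table (log2 change −0.93, adjusted p = 4.5e-08). That p was the 39th smallest of 12109. The knockdown log2 efficiency of DDR2 in the authors' deposited table was −0.02, and the derived control value was 0.91. DDR2 thus stood above 81.2% of transcripts in control cells, the highest place among the 10, and above 48.7% in knockdown cells. Its 2 deposited estimates were both −0.93, and it stayed called under the stricter adjusted p of 0.01.

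PDGFRB, the receptor for PDGF-B and PDGF-D and a usual marker of stellate cells, was the other called receptor. Its transcript (chromosome 5, 150113837 to 150155860, minus strand, 23 exons) was 1.48-fold lower in the authors' deposited table (log2 change −0.57, adjusted p = 0.0196). The derived control log2 efficiency of PDGFRB was 0.10, above 53.6% of transcripts, and the deposited knockdown value in the authors' deposited table was −0.47, above 32.6%. PDGFRB is no longer called at an adjusted p under 0.01. Neither DDR2 nor PDGFRB reached a 2-fold change.

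PDGFRA (chromosome 4, 54229097 to 54298247, plus strand, 23 exons), the paralog that binds PDGF-A, PDGF-B and PDGF-C, did not pass the test. The authors' deposited table lists a log2 change of 0.15 (adjusted p = 0.84) for it. Its derived control log2 efficiency was −0.38, and its knockdown value in the authors' deposited table was −0.23. PDGFRB thus lay 0.48 above PDGFRA on the log2 scale in control cells, while in knockdown cells the difference of PDGFRB minus PDGFRA was −0.24. The same difference between their log2 changes was −0.72 and was not tested, because the table gives no error for it.

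EGFR, FGFR1 and MET, the receptors for epidermal, fibroblast and hepatocyte growth factors, lay on the other side of 0. MET (chromosome 7, 116672392 to 116798386, plus strand, 21 exons) is listed in the authors' deposited table with a log2 change of 0.81 (p = 0.00876, adjusted p = 0.21). EGFR (chromosome 7, 55019101 to 55211628, plus strand, 28 exons) is listed in the authors' deposited table with 0.56 (p = 0.0108, adjusted p = 0.23). For FGFR1 on chromosome 8 the authors' deposited table gave 0.37 (p = 0.0277, adjusted p = 0.37). None of these 3 was called, although each had an unadjusted p under 0.05. The derived control log2 efficiencies were −0.91 for MET, −1.24 for EGFR and −1.01 for FGFR1, so at most 19.7% of transcripts lay below each of them in control cells. The knockdown values in the authors' deposited table were −0.09 for MET, −0.67 for EGFR and −0.64 for FGFR1. EGFR had the lowest control efficiency of the 10 receptors.

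The choice of method decides the call of MET and EGFR. The final p of the authors' deposited table is the larger of the 2 methods' p-values, and for 9 of the 10 receptors that was the second method's. The p-values of the first method alone were adjusted here by Benjamini-Hochberg over all transcripts. By these p-values of the authors' deposited table, MET (adjusted p = 0.0321) and EGFR (adjusted p = 0.0391) pass upward. DDR2 and PDGFRB pass downward by it, which makes 4 of 10 called where 3.77% of all transcripts are. EPHA4 misses the threshold by that method, with an adjusted p of 0.0509. The second method alone calls DDR2 and PDGFRB, as the final p does. Because the final p is the larger one, any receptor it calls passes by each method alone. The size of the change hardly differs between the methods: the first gave 0.81 for MET and 0.56 for EGFR in the authors' deposited table.

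AXL, the receptor for GAS6, and IGF1R, the receptor for insulin-like growth factors, had small negative log2 changes. The AXL transcript (chromosome 19, 41219203 to 41261766, plus strand, 20 exons) had −0.30 in the authors' deposited table (p = 0.0078, adjusted p = 0.19). IGF1R (chromosome 15, 98648539 to 98964530, plus strand, 21 exons) had −0.33 in the authors' deposited table (p = 0.20, adjusted p = 0.81). Near-equal changes of AXL and IGF1R thus came with very different p-values. The derived control log2 efficiency was −0.20 for AXL and −0.92 for IGF1R, and the knockdown values in the authors' deposited table were −0.50 and −1.25.

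Both ephrin receptors among the 10 had negative log2 changes and neither was called. EPHA4 (chromosome 2, 221418029 to 221572290, minus strand, 18 exons) had the largest change of the 10, 4.28-fold lower in the authors' deposited table (log2 change −2.10), with p = 0.0134 and an adjusted p of 0.26. Changes of that size were rare and mostly not called: 153 transcripts of the authors' deposited table had an absolute log2 change at least as large, and 31 of them (20.3%) were called. The derived control log2 efficiency of EPHA4 was 0.54, above 70.1% of transcripts, and the knockdown value in the authors' deposited table was −1.56, above 8.59%, the lowest of the 10. EPHA2 (chromosome 1, 16124337 to 16156087, minus strand, 17 exons) is listed in the authors' deposited table with −0.38 (p = 0.34, adjusted p = 0.89). Its derived control and deposited knockdown values were −0.40 and −0.78, the latter from the authors' deposited table. EPHA4 thus stood 0.94 above EPHA2 in control cells on the log2 scale, and the difference was −0.78 in knockdown cells. Neither difference was tested, since no error is given for them, and neither receptor's change was called.

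**Figure D2:**
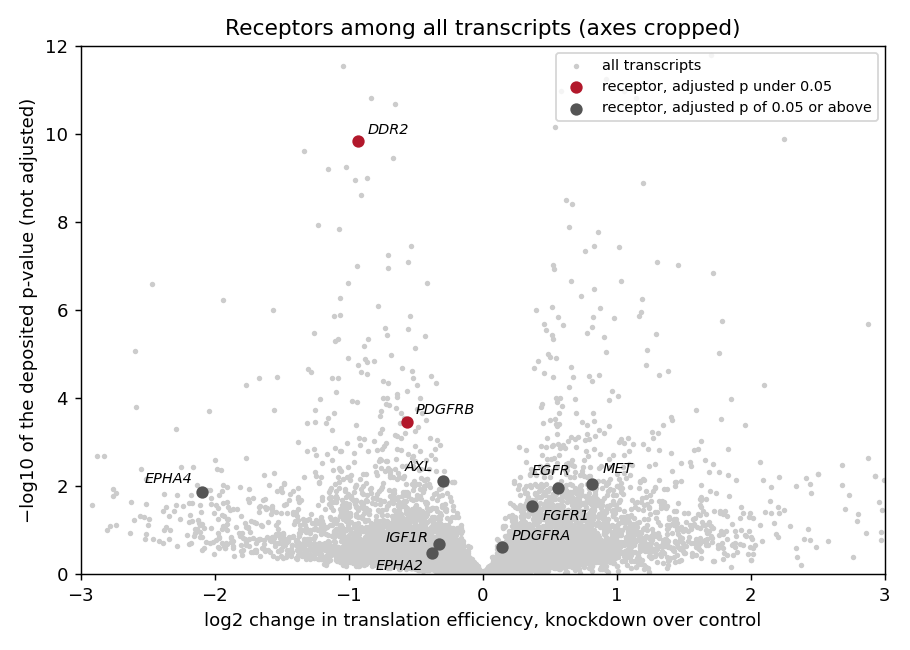
Deposited p-value before adjustment, as −log10 (y axis), against the log2 change in translation efficiency (x axis) for all transcripts (grey) and the 10 receptors (red where the adjusted p is under 0.05, dark grey otherwise); the axes leave out the most extreme transcripts. DDR2 stands far above the other receptors, whereas EPHA4, with a larger change of −2.10, lies level with MET and EGFR.

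In order of their derived control log2 efficiency the receptors ran from DDR2 (0.91), EPHA4 (0.54) and PDGFRB (0.10) through AXL, PDGFRA and EPHA2 to MET, IGF1R, FGFR1 and EGFR (−1.24). The 3 above 0 in control cells all had negative log2 changes. All 10 lay below 0 in knockdown cells, where the order in the authors' deposited table began with DDR2 (−0.02), MET (−0.09) and PDGFRA (−0.23) and ended with IGF1R (−1.25) and EPHA4 (−1.56). The range of the 10 was 2.14 on the log2 scale in control and 1.53 in knockdown cells. Because the control value is computed from the change, a high control value and a negative change are linked by construction. Which neighbours in either order differ beyond their error cannot be said, since no error is given. The median of the 10 was −0.39 in control and −0.57 in knockdown cells.

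**Figure D3:**
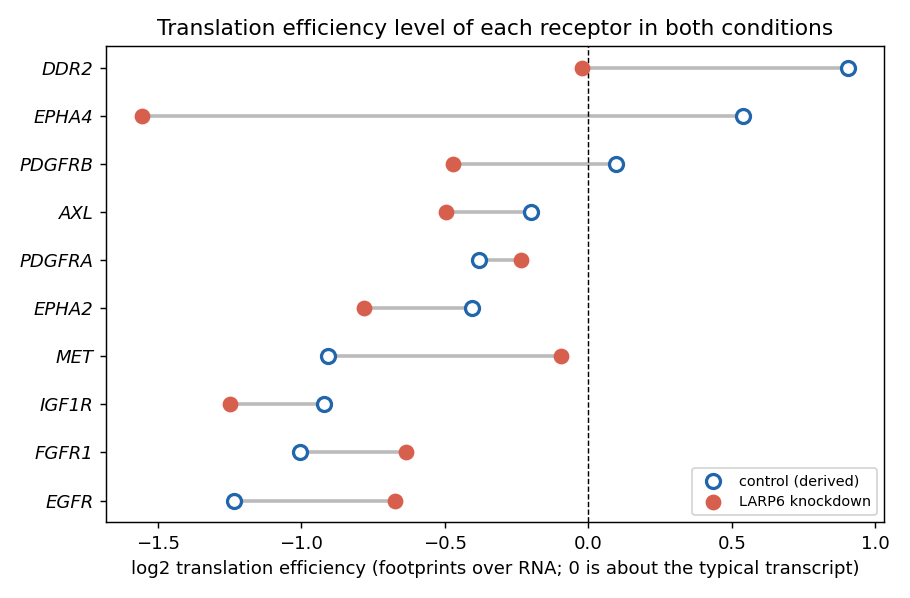
Log2 translation efficiency (x axis) of the 10 receptors (y axis) in control cells (open circles, derived) and in LARP6 knockdown cells (filled circles, as deposited), with a grey line joining the pair. All 10 filled circles lie below 0, and the 3 receptors with open circles above 0 (DDR2, EPHA4, PDGFRB) have their filled circles to the left; of these EPHA4 was not called.

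The 10 transcripts share long coding regions but have very different untranslated ends. Coding regions ran from 2469 bases in FGFR1 to 4173 in MET, with a median of 3116 beside 1398 for the 10400 protein-coding transcripts. The 5′ leader, the stretch before the start codon, had a median of 265.5 bases beside 187 for those transcripts. It ranged from 42 bases in EPHA4, shorter than in most transcripts (9.59% were shorter still), to 942 in FGFR1 and 1043 in IGF1R. The leaders of DDR2 and PDGFRA were poor in G and C, at 46.5% and 45.6%, with 3.82% and 3.25% of transcripts below them, whereas the other 8 lay between 63.4% and 75.1%. Of these 2, DDR2 was called lower and PDGFRA was not called (log2 change 0.15, adjusted p = 0.84 in the authors' deposited table). A link between leader composition and the change was not tested. DDR2 also had the shortest 3′ UTR of the 10, 175 bases beside a median of 1059 in those transcripts, and IGF1R the longest, 7088 bases.

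Upstream ATG triplets, where a scanning ribosome can start before the main coding region, occur in 6 of the 10 leaders and in 49.2% of the 10400 transcripts. The DDR2 and FGFR1 leaders hold 4 each, PDGFRA 3, MET 2, and PDGFRB and IGF1R 1 each. All of them are followed by an in-frame stop before the main start codon. EGFR, AXL, EPHA2 and EPHA4 have none. The upstream ATG closest to the DDR2 start codon, 46 bases before it, opens a reading frame of 5 codons. The single one of PDGFRB lies 254 bases before the start codon and opens 4 codons. Both called receptors thus carry an upstream ATG, as do PDGFRA, FGFR1, MET and IGF1R, which were not called. The closest of the 4 in DDR2 and the single one of PDGFRB are shown in capitals with their neighbouring bases.
DDR2 upstream ATG: gctccacagagaATGctctgcacccgt
PDGFRB upstream ATG: tcctcccgaaggATGcttggggagtga
From the authors' deposited table, the median log2 change was −0.09 for the 6 receptors with an upstream ATG and −0.34 for the 4 without. The same medians in the authors' deposited table over all transcripts with a complete coding region were 0.00 with and 0.04 without such a triplet. The members with and without such a triplet each include positive and negative changes. These features describe 1 annotated transcript per gene. GENCODE release 29 lists up to 20 protein-coding transcripts per gene for the 10 (20 for FGFR1, 1 for EPHA2), and which ones these cells use was not analysed here.

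**Figure D4:**
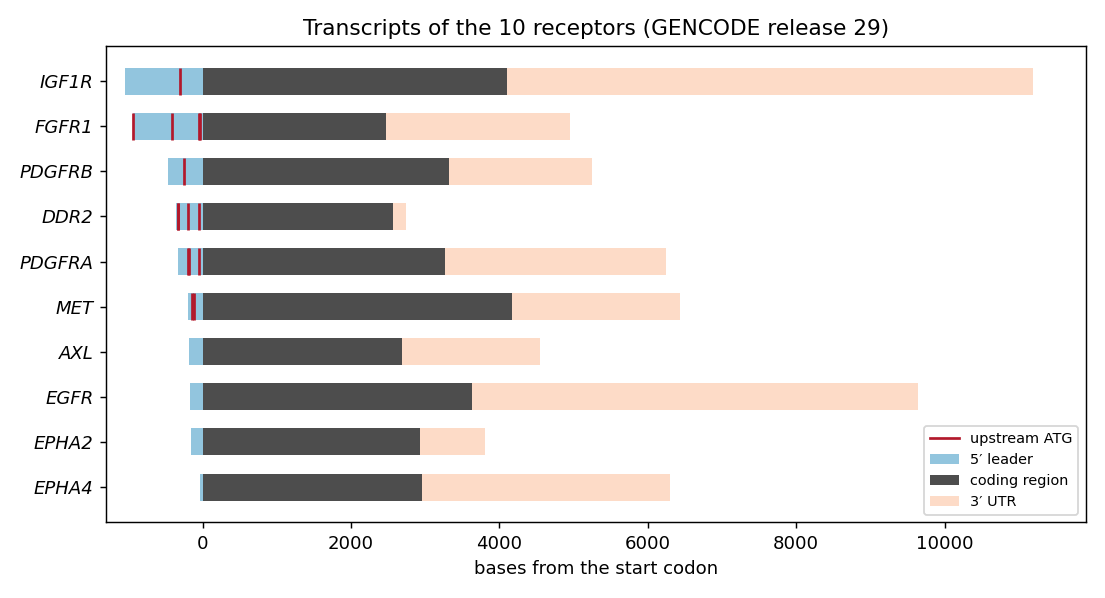
Annotated transcripts of the 10 receptors (y axis), drawn to scale in bases from the start codon (x axis): 5′ leader (blue), coding region (dark grey), 3′ UTR (pink) and upstream ATG triplets (red ticks). EPHA4 has the shortest leader at 42 bases and IGF1R the longest at 1043, and DDR2 has the shortest 3′ UTR at 175 bases.

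Among the ligands of these receptors 5 of 22 measured genes were called in the authors' deposited table, 4 lower and 1 higher (34 listed, median log2 change −0.10), where 1.12% and 1.07% of all transcripts were. The fibrillar collagens COL1A1, COL1A2 and COL3A1, which DDR2 binds, fell in the authors' deposited table like their receptor, with log2 changes of −0.57, −0.42 and −0.82 beside −0.93 for DDR2. The fibrillar collagen COL5A1 of the same list was not called, at −0.11 (adjusted p = 0.89) in the authors' deposited table. FGF2, a ligand of FGFR1, was 1.63-fold lower in the authors' deposited table (adjusted p = 2.0e-05), whereas FGFR1 had a positive change. HBEGF, an EGFR ligand shed from the membrane, was 3.89-fold higher in the authors' deposited table (log2 change 1.96, adjusted p = 0.0227), and EGFR also had a positive change. Other ligands with large values were not called. In the authors' deposited table the EGFR ligand EREG had a log2 change of −1.37 (adjusted p = 0.88), opposite in sign to HBEGF. FGF5, a further FGFR1 ligand, had 1.11 in the authors' deposited table (adjusted p = 0.32), opposite in sign to FGF2. IGF1 (a ligand of IGF1R) and FGF1 are listed in the authors' deposited table with log2 changes of −3.60 and −1.25 (adjusted p = 0.076 for each). For the PDGF receptors, PDGFC had 0.74 and PDGFD 1.67 in the authors' deposited table, with adjusted p of 0.15 and 0.45.

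Of 48 other receptor tyrosine kinases listed, 18 were measured. By the authors' deposited table, 0 of the 18 were called, where 2.20% of all transcripts were, so a count of 0 is near that share. A final p under 0.05 before adjustment was found for 4 of them (22.2%) in the authors' deposited table, where 10.3% of all transcripts had one. Their median log2 change in the authors' deposited table was −0.23, beside −0.31 for the 10 receptors. The smallest p among them belonged to ROR1, a Wnt receptor, for which the authors' deposited table lists a log2 change of −1.07 (adjusted p = 0.13). For DDR1, the paralog of DDR2, the authors' deposited table lists 0.05 (adjusted p = 0.99). The ephrin receptors of this list went both ways in the authors' deposited table, none of them called. EPHB3 (−2.60), EPHA5 (−0.99) and EPHB4 (−0.01) had negative log2 changes, and EPHB1 (1.16) and EPHB2 (0.42) had positive ones.

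Further lists held adaptors, the RAS-ERK cascade, the PI3K-AKT-mTOR cascade, SRC kinases with JAKs and STATs, and proteins linked to receptor down-regulation. Together they held 119 measured genes of 127 listed, and 0 were called in the authors' deposited table, where 2.20% of all transcripts were. A final p under 0.05 before adjustment was found for 10 of them, or 8.40%, in the authors' deposited table, near the 10.3% of all transcripts. Their median log2 change was 0.05 and their median absolute log2 change 0.22 in the authors' deposited table, beside 0.33 for all transcripts and 0.47 for the 10 receptors. The smallest p in each list of the authors' deposited table belonged to the adaptor NCK1 (−0.75), the ERK-activated kinase RPS6KA3 (0.84), the mTOR subunit MLST8 (0.89), the SRC family kinase FYN (−0.79) and the receptor phosphatase PTPRS (−0.69), given as log2 changes. Among 15 measured co-receptors and sheddases 0 were called in the authors' deposited table, where 2.20% of all transcripts were. A final p under 0.05 before adjustment was found for 4 of them (26.7%), beside 10.3% of all transcripts. The nearest to the threshold was SDC4, a heparan sulfate proteoglycan that presents growth factors, for which the authors' deposited table lists a log2 change of −0.51 (adjusted p = 0.0545).

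**Figure D5:**
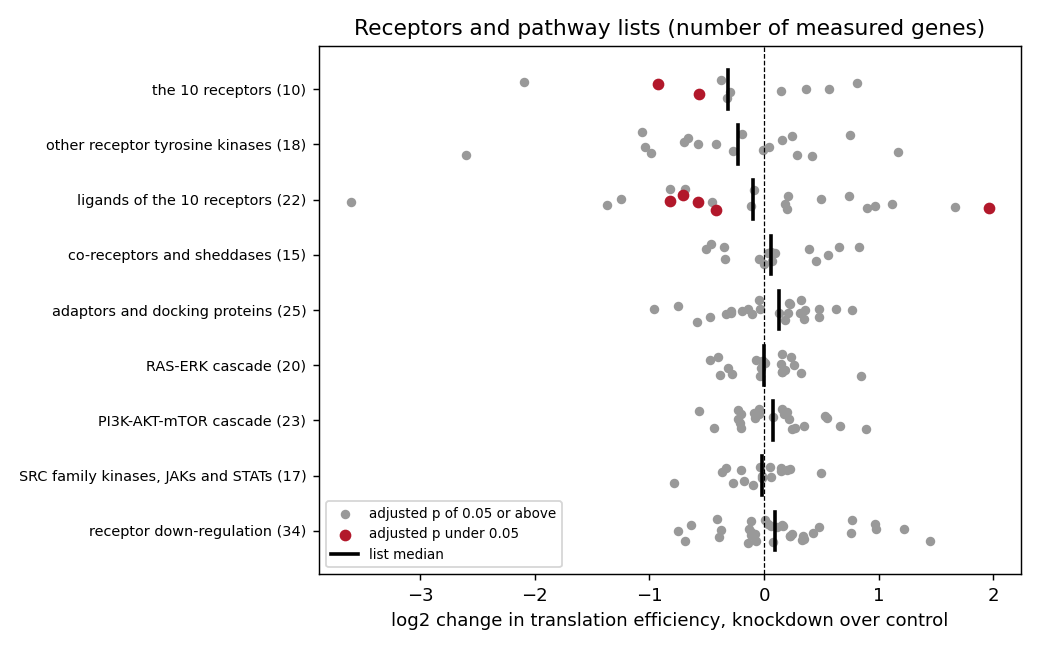
Log2 change in translation efficiency (x axis) of each measured gene in the 10 receptors and 8 pathway lists (y axis, number of genes in brackets); red points have an adjusted p under 0.05 and the black bar is the list median. Red points appear among the 10 receptors and their ligands, and in none of the other 7 lists.

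Markers of the labelled cell type were present in the authors' deposited table, where 16 of 19 listed stellate cell genes were measured, while DES, LRAT and RGS5 had no row. Of the 16, 8 were called lower and 1 higher in the authors' deposited table, with a median log2 change of −0.42, where 2.20% of all transcripts were called. Besides PDGFRB and the collagens COL1A1, COL1A2 and COL3A1, the markers that fell in the authors' deposited table were smooth muscle actin ACTA2 (log2 change −1.11), the proteoglycans DCN (−0.66) and LUM (−0.68) and the cross-linking enzyme LOX (−0.43). By the authors' deposited table VIM, or vimentin, rose (log2 change 0.40). The part of this shared direction in the falls of PDGFRB and DDR2 was not tested. Of other liver cell types the authors' deposited table held 2 of 14 hepatocyte, 3 of 12 endothelial, 5 of 10 biliary and epithelial and 2 of 12 leukocyte markers, with 0 called. ALB, PECAM1, EPCAM and PTPRC had no row. Levels of RNA are not in the table, so how abundant these messages were was not analysed here.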

How the data were processed

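The sources used here describe 8 libraries of human hepatic stellate cells, 2 each of RNA-seq and ribosome profiling in control and LARP6 knockdown cells. Per the submitters' processing notes, cutadapt and Bowtie were used with a human build named both hg38 and GRCh38, with no versions. Neither the comparing program nor the handling of multiply mapping reads is given in the sources used here. Per the file headers, the deposited values are log2 changes of translation efficiency by 2 methods and a final one, a log2 efficiency of the knockdown, and p-values. In all 12109 transcripts the authors deposited as final the larger p-value of the 2 methods, and their adjusted values matched Benjamini-Hochberg adjustment of it to within 6.3e-15. The table holds no values per library, so no test was fitted here and depth, SD and intervals cannot be given. Whether replicates came from separate cultures is not in the labels, so the p-values may reflect only technical spread.

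Control efficiencies, percentiles, list counts and Benjamini-Hochberg adjustment over all transcripts were computed in Python 3.11.15 with pandas 2.3.3. The adjustment was tested on simulated data. The last 6 digits of the transcript identifier matched 11590 transcripts of GENCODE release 29, whose build GRCh38 is the one the notes name. Coding regions and leaders were taken from 10400 of them. The members and gene lists were chosen with earlier results of these data known. Genes named are the 10 receptors, the called genes of each pathway list and, where a list had none, the gene with the smallest p. DDR1, the ephrin receptors outside the 10 and the ligands named as not called were chosen after their values were seen. Near-identical family members are uncertain where reads are shared.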

Additional observations from a re-analysis of the deposited data

How the results depend on the processing

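No paired analysis was possible because the table gives no value per library, and for the same reason no replicate could be left out. Receptors called higher went from 0 to 2 with the first method alone (MET and EGFR, adjusted p of 0.0321 and 0.0391), and stayed at 0 under the other settings run. Of those settings, the adjusted p under 0.01 and the 2-fold requirement could not raise the count. Receptors called lower went from 2 to 1 at an adjusted p under 0.01 and to 0 when a 2-fold change was also required. Their number stayed at 2 when adjusted over 10560 protein-coding transcripts only. It also stayed at 2 at an adjusted p under 0.1 and with either method alone, but these settings could not lower it. The final p is the larger of the 2 methods' p-values, so each method alone passes every receptor that the final p calls. At an adjusted p under 0.1, 2 co-receptors or sheddases and 1 SRC family kinase, JAK or STAT were called lower, from 0 each, and ligands called lower went from 4 to 6 (FGF1 and IGF1 added, each with an adjusted p of 0.076). Every log2 change of the 10 receptors kept its sign with each method alone and after subtraction of the protein-coding median of 0.017. When the final log2 change was subtracted instead, only the derived control efficiency of DDR2 moved, from 0.906 to 0.904. For the other receptors the final change is the second method's, so their values could not move. Depth is unknown, so a receptor that was not called cannot be said to be unchanged.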
